A study of Oryza sativa with 8 samples.

Results

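The loci described here are the heat shock proteins, their cochaperones and the heat shock factors of rice (Oryza sativa). A locus was taken when the annotation of a deposited transcript model held, ignoring case, heat shock, Hsp20, HSP, DnaJ or chaperonin. The matching model with the highest mean stood for its locus, and loci were told apart by the first part of the model identifier. This gave 247 loci among 36819 in the table, from 311 matching models. They were 38 small heat shock proteins (sHSPs), 29 Hsp70, 8 Hsp90, 2 Hsp100, 108 DnaJ and 28 chaperonin loci, 17 heat shock factors (HSFs), and 17 others such as HSF-binding proteins and activators of the Hsp90 ATPase.

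RNA sequencing of total RNA covered the shoot apical meristem, the group of dividing cells at the shoot tip, in 3 groups. The 3 libraries labelled GW6a-4.6 are described as a substitution line, a Nipponbare background carrying a chromosome segment of the cultivar Kasalath. The 3 libraries labelled OsglHAT1-OE are described as transgenic plants in the Nipponbare background; the labels do not give the promoter of the transgene or the number of independent lines. The 2 remaining libraries came from Nipponbare itself, a japonica cultivar, and served as the control. OsglHAT1 is the product of GW6a, a GNAT-type histone acetyltransferase gene known for its effect on grain weight. No age, growth temperature, sampling time or batch was given, and nothing says that replicates were separate plants, so p-values measure the spread between these libraries, which may be technical.

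Chaperones keep other proteins from misfolding. Small heat shock proteins bind unfolding proteins without ATP, Hsp70 refolds them in cycles of ATP hydrolysis set off by DnaJ (J-domain) partners, Hsp90 matures signalling proteins such as receptors and kinases, Hsp100 pulls proteins out of aggregates, and chaperonins enclose proteins in a barrel-shaped chamber. Heat shock factors are the transcription factors that bind heat shock elements and switch many of these genes on, and several heat shock proteins also accumulate in plants during seed maturation and drying.

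The deposited value is a signal per transcript model, proportional to read alignments over the library's total reads. Libraries held 5207710 to 7667853 reads, and 3 reads, the smallest amount treated as detected, were worth 0.391 to 0.576. The values are not divided by transcript length, so levels are compared between groups and never between genes. The library labelled OsglHAT1-OE replicate 3 stood apart, where a read counted for 2.41 alignments on average, while the 7 others had 2.66 to 2.69. The GW6a transcript Os06t0650300-00 went against the labels. It measured 2642, 2573 and 2913 in the libraries labelled GW6a-4.6, 13.2, 8.87 and 10.02 in those labelled OsglHAT1-OE, and 1.46 and 2.30 in Nipponbare. The groups did not overlap, and its log2 difference from Nipponbare was 9.89 ± 0.14 in the libraries labelled GW6a-4.6 and 2.02 ± 0.14 (SE) in those labelled OsglHAT1-OE. The exact two-sided permutation p was 0.2 for each line against Nipponbare, the smallest that 3 against 2 libraries can give. The labels of the 2 lines may have been exchanged, which was not tested and would swap which line each value below belongs to. Groups are therefore named by their labels throughout, each line name standing for the libraries so labelled, and no direction is tied to the dose of this gene. All 5 KNOX homeobox markers of the shoot meristem were detected, with sums of 411 to 430 in GW6a-4.6, 281 to 352 in OsglHAT1-OE and 204 to 219 in Nipponbare. By the test described below, 3 of them rose in GW6a-4.6 and 3 in OsglHAT1-OE, beside 26.7% and 22.8% of all loci. OSH71 (Os05t0129700-01) passed in neither line, and OSH6 (Os01t0302500-01) fell in OsglHAT1-OE (log2 -0.48).

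Of the 247 loci, 238 reached a value of 1 in at least 2 libraries and were tested with limma in a fit over all 31487 such loci, with Benjamini-Hochberg adjusted p-values and a threshold of 0.05. More loci of the family fell than rose in both lines. In GW6a-4.6, 101 of the 238 were lower than in Nipponbare and 39 were higher, which is 42.4% and 16.4%, against a background of 19.5% lower, 26.7% higher and 46.3% called either way over all loci tested. In OsglHAT1-OE, 108 were lower and 36 higher, which is 45.4% and 15.1%, against 29.7% lower, 22.8% higher and 52.5% either way over all loci. The median log2 difference was -0.21 in GW6a-4.6 and -0.24 in OsglHAT1-OE, beside 0.07 and -0.08 over all loci in the same 2 comparisons. Both comparisons share the 2 Nipponbare libraries, so their counts are not independent of each other. Without OsglHAT1-OE replicate 3 the counts were 108 lower and 41 higher in GW6a-4.6, and 106 lower and 39 higher in OsglHAT1-OE. Without Nipponbare replicate 1 the GW6a-4.6 counts were 85 lower and 24 higher, and without Nipponbare replicate 2 they were 78 lower and 23 higher. In bulk tissue, fewer cells of a type and less RNA per cell cannot be told apart. The 9 loci that were not tested were 3 DnaJ, 2 sHSP, 2 Hsp70, 1 Hsp90 and 1 chaperonin locus.

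**Figure D1:**
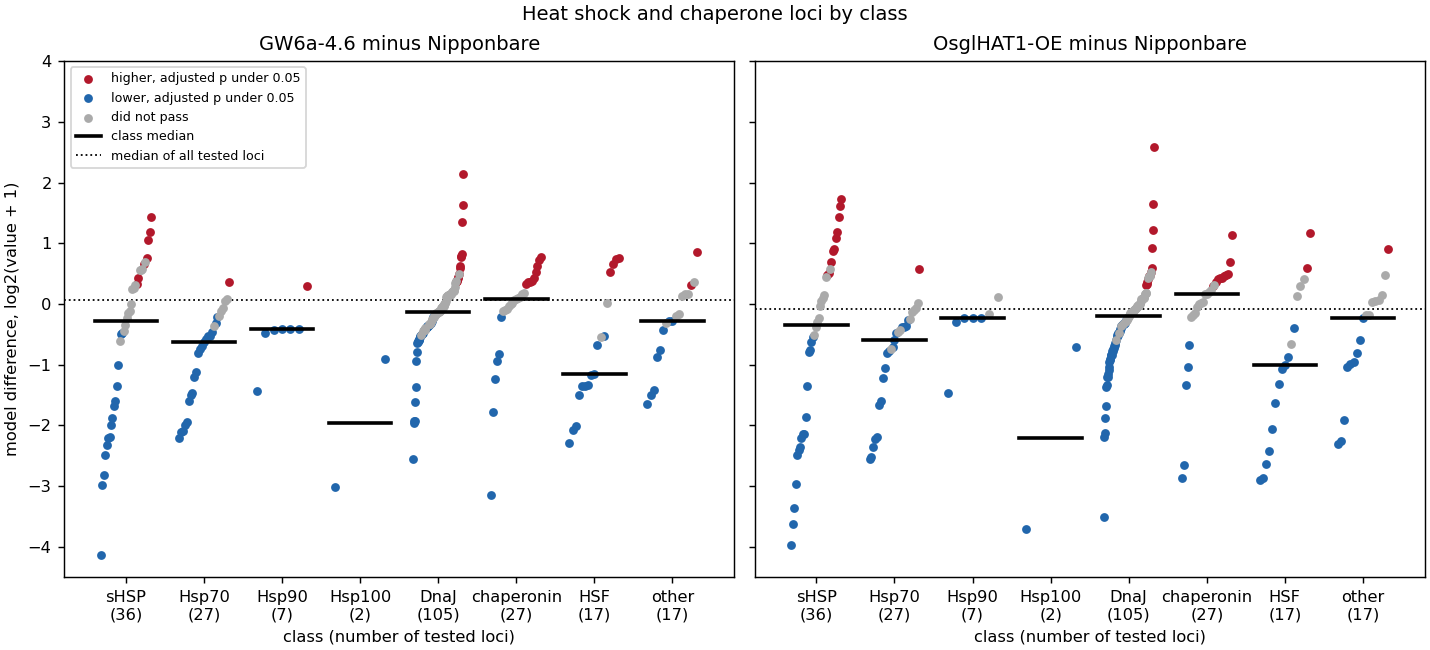
Model difference on the log2(value + 1) scale (vertical axis) of each of the 238 tested loci by class (horizontal axis, number of loci in brackets), for GW6a-4.6 minus Nipponbare on the left and OsglHAT1-OE minus Nipponbare on the right. Red points rose and blue points fell at an adjusted p under 0.05, grey points did not pass, bars are class medians and the dotted line is the median of all tested loci (0.07 on the left, -0.08 on the right); the HSF median stood at -1.16 on the left and -1.0 on the right, and the chaperonin median at 0.08 and 0.17.

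Of the 17 heat shock factors, 11 fell and 4 rose in GW6a-4.6, with a median log2 difference of -1.16, and 11 fell and 2 rose in OsglHAT1-OE, with a median of -1.0. The shares were 64.7% lower and 23.5% higher in GW6a-4.6, beside 19.5% and 26.7% over all loci, and 64.7% lower and 11.8% higher in OsglHAT1-OE, beside 29.7% and 22.8%. Their summed value was 545 ± 12 in GW6a-4.6 and 527 ± 27 in OsglHAT1-OE (SD, n = 3 each), against 803 ± 22 in Nipponbare (SD, n = 2). The count of HSFs that rose in OsglHAT1-OE was 4 with median-ratio scaling of the libraries and 1 without Nipponbare replicate 2.

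An HSF annotated as similar to Spl7, Os09t0456800-01, had values of 49.6, 33.8 and 42.7 in GW6a-4.6, 13.8, 15 and 13.1 in OsglHAT1-OE, and 107 and 108 in Nipponbare. The 3 groups did not overlap, with Nipponbare highest and OsglHAT1-OE lowest. It fell 2.55-fold in GW6a-4.6 (log2 -1.35, adjusted p = 2.36e-09) and 7.69-fold in OsglHAT1-OE (log2 -2.86, adjusted p = 2.8e-18). The HSF3-like locus Os09t0526600-02 kept the same order, with 6.96, 6.12 and 9.42 in GW6a-4.6, 4.697, 3.13 and 3.54 in OsglHAT1-OE, and 37.7 and 30.9 in Nipponbare. Its log2 difference was -2.07 in GW6a-4.6 (adjusted p = 5.03e-09) and -2.89 in OsglHAT1-OE (adjusted p = 9.71e-13). The HSF29-like locus Os02t0232000-01 had 6.25, 4.21 and 5.61 in GW6a-4.6, 4.26, 3.52 and 4.13 in OsglHAT1-OE, and 29.5 and 29.8 in Nipponbare. Both lines overlapped each other here and lay below Nipponbare, at log2 -2.28 in GW6a-4.6 and -2.63 in OsglHAT1-OE (adjusted p = 5.57e-10 and 1.26e-11).

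Several loci annotated as similar to HSF31 behaved differently from each other. Os10t0419300-00 measured 21.8, 25.04 and 22.6 in GW6a-4.6, 12.2, 14.7 and 8.99 in OsglHAT1-OE, and 70.5 and 63.6 in Nipponbare, so that the 3 groups did not overlap. Os02t0527300-01 measured 14.6, 17.97 and 19.7 in GW6a-4.6, 23.9, 23.6 and 20.8 in OsglHAT1-OE, and 77.7 and 67.4 in Nipponbare, with GW6a-4.6 lowest. Their log2 differences were -1.49 and -2.0 in GW6a-4.6, and -2.41 and -1.63 in OsglHAT1-OE, all past the threshold. Os03t0854500-01, by contrast, measured 188, 194 and 175 in GW6a-4.6, 209, 205 and 192 in OsglHAT1-OE, and 186 and 180.1 in Nipponbare. It did not pass in GW6a-4.6 (log2 0.02, adjusted p = 0.892) or in OsglHAT1-OE (log2 0.14, adjusted p = 0.203), although the second difference passed with median-ratio scaling (log2 0.21, adjusted p = 0.0148). Further HSFs that fell were Os03t0795900-01 (log2 -0.52 in GW6a-4.6 and -0.39 in OsglHAT1-OE), Os07t0178600-01 (-1.16 and -0.87), Os04t0568700-00 (-1.34 and -2.05), Os01t0571300-01 (-1.16 and -1.32) and the HSF annotated with cadmium tolerance, Os01t0749300-02 (-0.68 and -1.0). The call of the last in GW6a-4.6 was lost without Nipponbare replicate 2 (adjusted p = 0.137), and that of Os03t0795900-01 in OsglHAT1-OE without Nipponbare replicate 1 (adjusted p = 0.0691). Os01t0625300-01 fell in GW6a-4.6 (log2 -1.35, adjusted p = 0.000255) and did not pass in OsglHAT1-OE (log2 -0.66, adjusted p = 0.06).

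A few HSFs were higher in the lines. Os09t0455200-01, annotated by its HSF-type DNA-binding domain, measured 40.7, 38.4 and 45.1 in GW6a-4.6, 59.9, 57.3 and 49.5 in OsglHAT1-OE, and 27.6 and 20.9 in Nipponbare. Every line library exceeded both Nipponbare libraries, and it rose 1.705-fold in GW6a-4.6 and 2.29-fold in OsglHAT1-OE (log2 0.76 and 1.17, adjusted p = 4.53e-05 and 1.3e-08). The HSF33-like locus Os07t0640900-02 rose 1.62-fold in GW6a-4.6 (adjusted p = 0.00423) and 1.54-fold in OsglHAT1-OE (adjusted p = 0.00852), the second call being lost without Nipponbare replicate 2 (adjusted p = 0.0608). Os02t0496100-01 rose 1.46-fold in GW6a-4.6 (adjusted p = 0.00215, or 0.0541 without Nipponbare replicate 1) and did not pass in OsglHAT1-OE (log2 0.30, adjusted p = 0.0654, or 0.00804 with median-ratio scaling).

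Spl7 itself, Os05t0530400-01, an HSF whose loss gives rice leaves spontaneous lesions, was called in opposite directions in the 2 lines. It measured 21.96, 20.5 and 18.5 in GW6a-4.6, 4.11, 5.09 and 6.34 in OsglHAT1-OE, and 12.9 and 10.8 in Nipponbare, and the 3 groups did not overlap. It was 1.72-fold higher in GW6a-4.6 than in Nipponbare (log2 0.73, adjusted p = 0.00697) and 2.28-fold lower in OsglHAT1-OE than in Nipponbare (log2 -1.06, adjusted p = 0.000128). It was also lower in OsglHAT1-OE than in GW6a-4.6 (log2 -1.80 ± 0.20 SE, adjusted p = 3.58e-09). The GW6a-4.6 call was lost without Nipponbare replicate 2 (log2 0.61, adjusted p = 0.0994). Os01t0733200-01, similar to HSF29, measured 8.93, 6.499 and 5.43 in GW6a-4.6, 16.6, 11.7 and 14.6 in OsglHAT1-OE, and 10.5 and 10.4 in Nipponbare. Neither line passed against Nipponbare (log2 -0.55 and 0.41, adjusted p = 0.053 and 0.147), while OsglHAT1-OE was higher than GW6a-4.6 (log2 0.96, adjusted p = 0.000455).

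HSF-binding protein 1, a small coiled-coil protein that binds HSFs and restrains them in animals and in Arabidopsis, moved the other way from most factors. The transcript Os09t0375100-01 measured 179, 190.0 and 162 in GW6a-4.6, 195, 189 and 165 in OsglHAT1-OE, and 96.5 and 97.2 in Nipponbare. All 6 line libraries lay above both Nipponbare libraries, and it rose 1.83-fold in GW6a-4.6 and 1.89-fold in OsglHAT1-OE (log2 0.86 and 0.90, adjusted p = 2.9e-09 and 6.7e-10). The second binding protein, Os06t0274000-01, measured 88.2, 77.99 and 81.1 in GW6a-4.6, 78.4, 78.8 and 63.5 in OsglHAT1-OE, and 58.8 and 74.5 in Nipponbare. Its rise in GW6a-4.6 (log2 0.31, adjusted p = 0.0374) was lost without Nipponbare replicate 1 (adjusted p = 0.512), and OsglHAT1-OE did not pass (adjusted p = 0.345).

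The selection by annotation misses 6 loci called heat stress transcription factors, a list drawn up after the annotations had been read. Of the 5 tested, 3 fell in GW6a-4.6 and 4 in OsglHAT1-OE, beside 19.5% and 29.7% lower over all loci. Os03t0366800-00, similar to HSF B-4d, passed in neither line (log2 0.02 and -0.27, adjusted p = 0.951 and 0.373). Os03t0161900-01, similar to HSF A-2d, fell in OsglHAT1-OE (log2 -1.04, adjusted p = 0.000232) and did not pass in GW6a-4.6 (log2 -0.38, adjusted p = 0.182), and the lines differed from each other (log2 -0.66, adjusted p = 0.012). Os03t0745000-01, similar to HSF A-2a, measured 0, 0.765 and 0.362 in GW6a-4.6, 0, 0.261 and 0 in OsglHAT1-OE, and 27.6 and 33.4 in Nipponbare. It held 6 reads over the 3 GW6a-4.6 libraries and 2 over the 3 OsglHAT1-OE libraries, against 363 over the 2 Nipponbare libraries. Its log2 difference was -4.55 in GW6a-4.6 (adjusted p = 1.5e-14) and -4.86 in OsglHAT1-OE (adjusted p = 1.72e-15). Os08t0546800-01, similar to HSF B-2b, measured 5.53, 5.54 and 5.07 in GW6a-4.6, 1.76, 2.61 and 2.801 in OsglHAT1-OE, and 33.6 and 33.03 in Nipponbare. It fell 6.19-fold in GW6a-4.6 and 13.9-fold in OsglHAT1-OE (adjusted p = 2.48e-10 and 3.88e-14).

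**Figure D2:**
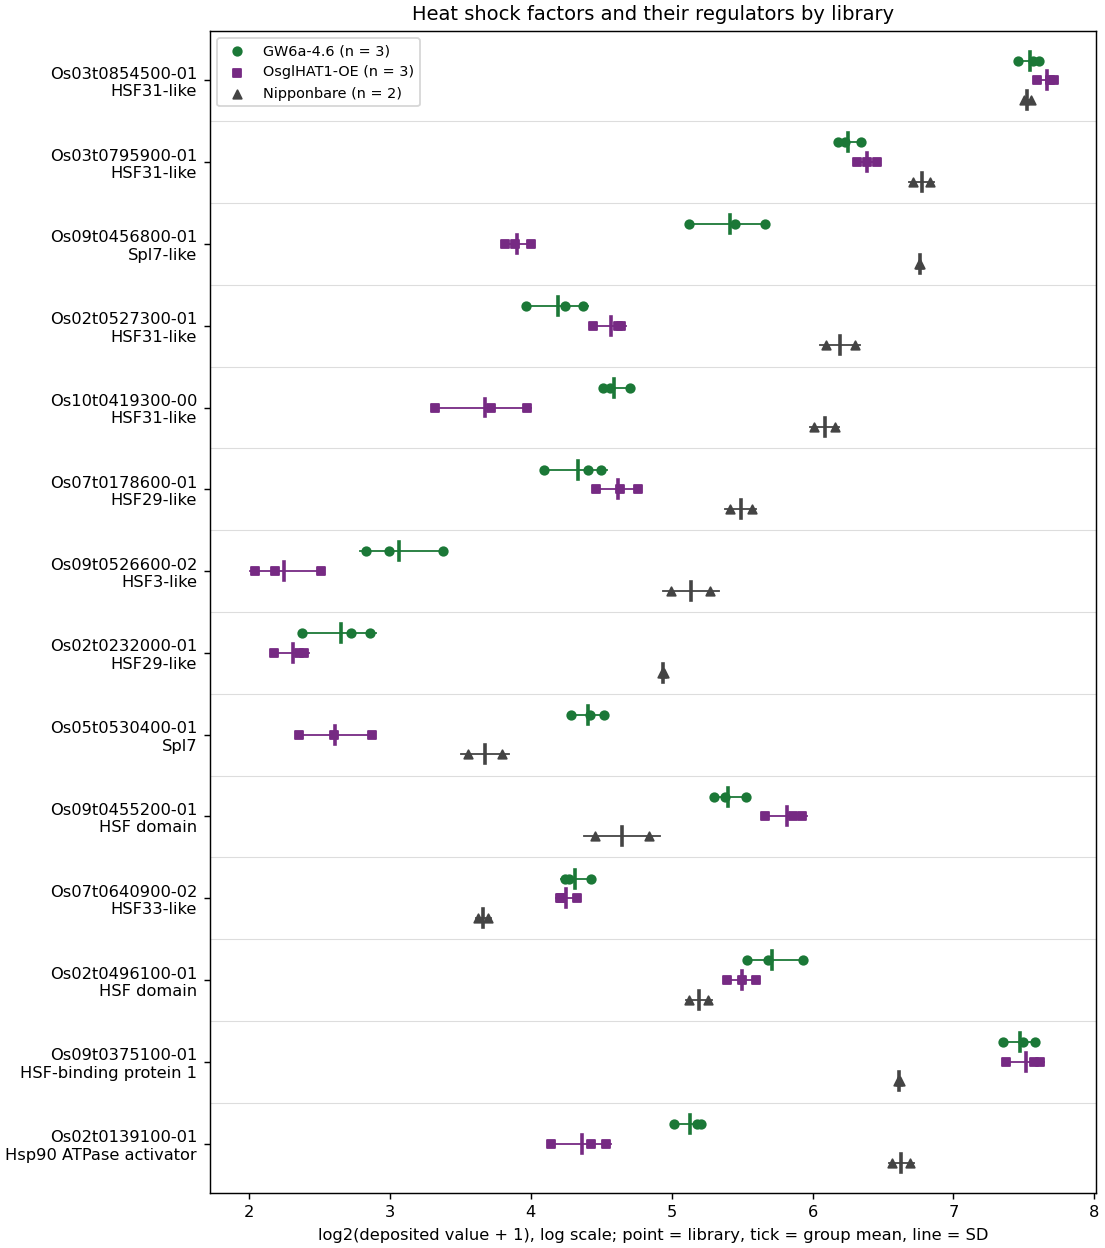
Values of 12 heat shock factors, HSF-binding protein 1 and an activator of the Hsp90 ATPase on the log2(deposited value + 1) scale (horizontal axis), one locus per line with GW6a-4.6 above OsglHAT1-OE above Nipponbare. Points are libraries, ticks are group means and lines are SDs; Spl7 (Os05t0530400-01) lies above Nipponbare in GW6a-4.6 and below it in OsglHAT1-OE, and HSF-binding protein 1 lies above Nipponbare in both lines.

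Of the 36 tested sHSPs, 15 fell and 7 rose in GW6a-4.6 (median log2 -0.29), and 16 fell and 10 rose in OsglHAT1-OE (median -0.34). The shares lower, 41.7% and 44.4%, stood above the 19.5% and 29.7% over all loci in those comparisons, while the shares higher, 19.4% and 27.8%, were near the 26.7% and 22.8% over all loci. Without Nipponbare replicate 1 the counts of sHSPs that rose were 3 in GW6a-4.6 and 7 in OsglHAT1-OE, and without Nipponbare replicate 2 they were 4 and 6. Their annotations divide the class, a division made after the values were seen. Among the 19 tested loci named by class, mass or low molecular weight, 13 fell and 2 rose in GW6a-4.6 (median log2 -1.60), and 14 fell and 3 rose in OsglHAT1-OE (median -1.86). Among the 12 named only by an Hsp20 domain, 1 fell and 3 rose in GW6a-4.6 (median 0.44), and 1 fell and 5 rose in OsglHAT1-OE (median 0.51). The 5 loci with an HSP20-like chaperone domain, the group to which p23-type Hsp90 cochaperones belong, gave 1 that fell and 2 that rose in each line.

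Falls were seen among cytosolic sHSPs. Class II locus Os01t0184100-01 measured 30.3, 28.1 and 23.7 in GW6a-4.6, 33.9, 34.7 and 30.5 in OsglHAT1-OE, and 161 and 153 in Nipponbare. It was 5.72-fold lower in GW6a-4.6 and 4.74-fold lower in OsglHAT1-OE, with no overlap between either line and Nipponbare (adjusted p = 6.72e-18 and 1.42e-16). The other class II locus, Os02t0782500-02, held 1 read over the 3 GW6a-4.6 libraries and 4 reads over the 3 OsglHAT1-OE libraries, against 212 reads over the 2 Nipponbare libraries. The lines' values were 0.178, 0 and 0 in GW6a-4.6 and 0.294, 0.261 and 0 in OsglHAT1-OE, against 18.4 and 16.5 in Nipponbare, a ratio to Nipponbare of 0.00341 in GW6a-4.6 with a 95% counting interval of 8.75e-05 to 0.0196. The model difference was log2 -4.13 in GW6a-4.6 and -3.97 in OsglHAT1-OE (adjusted p = 2.22e-13 and 4.47e-13).

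Loci of class I lie in runs of neighbouring identifiers, within which near-identical copies may share reads. Os01t0136100-01 measured 1.78, 1.72 and 2.898 in GW6a-4.6, 1.91, 1.83 and 1.62 in OsglHAT1-OE, and 21.4 and 20.2 in Nipponbare. Its neighbour Os01t0136200-01 measured 2.68, 0.956 and 2.35 in GW6a-4.6, 1.47, 1.56 and 0.737 in OsglHAT1-OE, and 21.9 and 21.7 in Nipponbare. In both loci every line library stood far below both Nipponbare libraries, at log2 -2.81 and -2.98 in GW6a-4.6 and -2.97 and -3.36 in OsglHAT1-OE (adjusted p of 2.34e-10 or less). Of the same run, Os01t0136000-00 and Os01t0136050-00 also fell, at log2 -2.21 and -2.33 in GW6a-4.6 and -2.40 and -2.49 in OsglHAT1-OE. A weaker fall was seen for Os01t0135900-02, at 87.3, 71.1 and 72.8 in GW6a-4.6, 66.8, 62.9 and 56.01 in OsglHAT1-OE, and 108 and 106 in Nipponbare (log2 -0.47 and -0.78, adjusted p = 0.0011 and 6.04e-07). Os01t0135800-01, the first of the run by number, was at 0 in every library. The class IV locus Os04t0445100-01, elsewhere in the numbering, was at 0 in all 6 line libraries, against 2.05 and 1.15 in Nipponbare. Set against a floor of 3 reads over each group, it was at least 8.72-fold lower in GW6a-4.6 and at least 11.3-fold lower in OsglHAT1-OE (adjusted p = 0.00187 and 0.00157).

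The second run, on chromosome 3 by its identifiers, held 4 low-molecular-weight sHSPs that all fell. The class I locus Os03t0266300-01 measured 30.7, 21.8 and 20.5 in GW6a-4.6, 22.3, 21.4 and 16.1 in OsglHAT1-OE, and 82.1 and 67.6 in Nipponbare. It fell 3.08-fold in GW6a-4.6 and 3.76-fold in OsglHAT1-OE, with no overlap (adjusted p = 8.38e-10 and 1.38e-11). Os03t0266900-02 fell 3.95-fold and 5.801-fold, Os03t0267000-00 3.55-fold and 5.15-fold, and Os03t0267200-01 2.04-fold and 1.72-fold, in GW6a-4.6 first and OsglHAT1-OE second (adjusted p of 0.00141 or less in each).

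Organelle sHSPs did not move together. The mitochondrial low-molecular-weight locus Os02t0758000-01 measured 7.497, 6.12 and 7.43 in GW6a-4.6, 1.91, 2.22 and 1.77 in OsglHAT1-OE, and 36.7 and 34.2 in Nipponbare. The 3 groups did not overlap, and it fell 5.05-fold in GW6a-4.6 and 18.04-fold in OsglHAT1-OE (adjusted p = 1.58e-09 and 2.21e-15). Os02t0201000-02, also mitochondrial by annotation, fell in OsglHAT1-OE (log2 -0.62, adjusted p = 2.14e-05) and did not pass in GW6a-4.6 (log2 -0.23, adjusted p = 0.112, or 0.00871 with median-ratio scaling). Another mitochondrial locus, Os06t0219500-00, measured 158, 108 and 162 in GW6a-4.6, 155, 143 and 168 in OsglHAT1-OE, and 112 and 109 in Nipponbare. It rose in OsglHAT1-OE (log2 0.48, adjusted p = 0.000872), while its call in GW6a-4.6 (log2 0.34, adjusted p = 0.0198) came with overlapping libraries and was lost, among other settings, with median-ratio scaling (adjusted p = 0.0702).

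Of the 7 sHSPs that rose in GW6a-4.6 and the 10 in OsglHAT1-OE, 3 and 5 were named only by an Hsp20 domain. In GW6a-4.6 these 3 of 12 such loci were a share near the 26.7% higher over all loci. In OsglHAT1-OE the 5 of 12 were 41.7%, beside 22.8% over all loci. Os10t0159600-01, an Hsp20-domain locus, measured 86.4, 85.3 and 87.7 in GW6a-4.6, 112, 90.8 and 92.1 in OsglHAT1-OE, and 38.03 and 25.7 in Nipponbare. Its neighbour Os10t0159700-01 measured 92.5, 67.3 and 80.05 in GW6a-4.6, 121, 112 and 115 in OsglHAT1-OE, and 38.03 and 31.1 in Nipponbare. All 6 line libraries exceeded both Nipponbare libraries in both loci, which rose 2.71-fold and 2.31-fold in GW6a-4.6 and 3.08-fold and 3.35-fold in OsglHAT1-OE (adjusted p of 4.35e-10 or less). The class V locus Os07t0517100-03 measured 6.605, 3.25 and 3.803 in GW6a-4.6, 5.87, 8.35 and 4.42 in OsglHAT1-OE, and 1.17 and 2.11 in Nipponbare. It rose 2.77-fold in GW6a-4.6 (adjusted p = 0.0049, or 0.122 without Nipponbare replicate 1) and 3.79-fold in OsglHAT1-OE (adjusted p = 0.000147). One Hsp20-domain locus fell, Os06t0253100-01, with 0, 0 and 0.362 in GW6a-4.6, 0, 0 and 0 in OsglHAT1-OE, and 3.803 and 3.07 in Nipponbare (adjusted p = 9.63e-06 and 2.29e-06).

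Genes of desiccation and seed maturation were lower in the lines as well. The 38 loci annotated as dehydrins, late embryogenesis abundant or seed maturation proteins summed to 1072 to 1168 in GW6a-4.6, 868 to 1028 in OsglHAT1-OE and 3507 to 3854 in Nipponbare. Of the 28 tested, 19 fell and 3 rose in GW6a-4.6, and 19 fell and 2 rose in OsglHAT1-OE, where the shares over all loci are 19.5% lower and 26.7% higher, and 29.7% lower and 22.8% higher; 2 of the 38, Os03t0747500-01 and Os12t0626500-00, were at 0 in every library. Endosperm storage protein loci, 38 with 11 tested, summed to 185 to 196 in GW6a-4.6, 146 to 182 in OsglHAT1-OE and 209 to 215 in Nipponbare. Of those 11, 3 fell and 2 rose in GW6a-4.6, and 3 fell and 1 rose in OsglHAT1-OE, counts near those shares over all loci; 8 of the 38, mostly prolamins, were at 0 in every library. Whether either list has a part in the heat shock results was not tested.

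**Figure D3:**
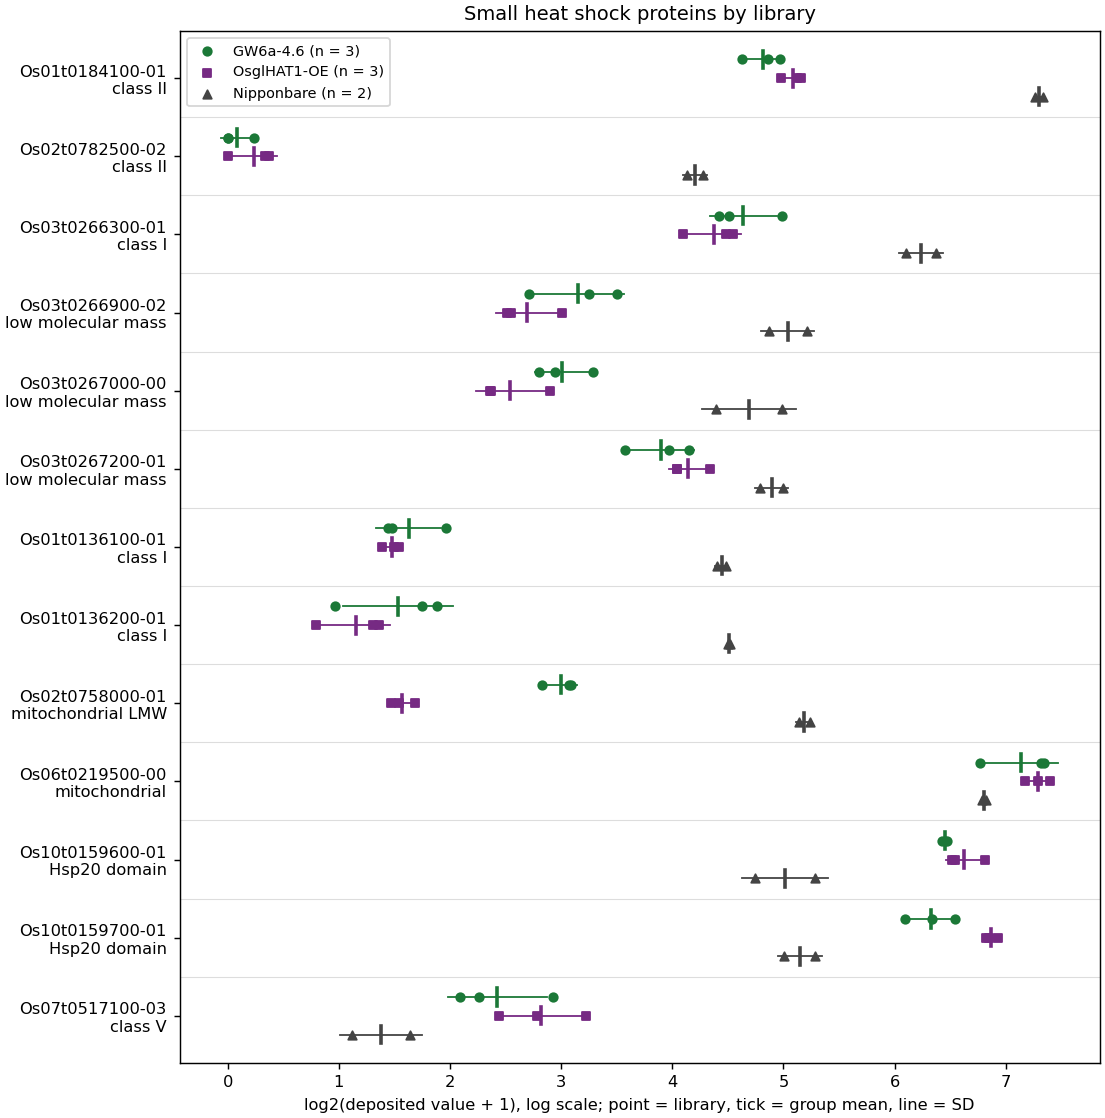
Values of 13 small heat shock proteins on the log2(deposited value + 1) scale (horizontal axis), one locus per line with GW6a-4.6 above OsglHAT1-OE above Nipponbare. Points are libraries, ticks are group means and lines are SDs; the 9 class I, class II, low-molecular-mass and low-molecular-weight mitochondrial loci at the top lie below Nipponbare in both lines, and the 2 Hsp20-domain loci and the class V locus lie above it.

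Most Hsp70 loci fell in both lines. Of its 27 tested loci, 20 fell and 1 rose in GW6a-4.6 (median log2 -0.62), and 18 fell and 1 rose in OsglHAT1-OE (median -0.59). The shares were 74.1% lower and 3.70% higher in GW6a-4.6, beside 19.5% and 26.7% over all loci, and 66.7% and 3.70% in OsglHAT1-OE, beside 29.7% and 22.8%. The summed value over the 29 loci was 11205 ± 182 in GW6a-4.6 and 11547 ± 398 in OsglHAT1-OE (SD, n = 3 each), against 20414 ± 771 in Nipponbare (SD, n = 2). Most of this sum came from Os11t0703900-01, with means of 7020 in GW6a-4.6, 7166.5 in OsglHAT1-OE and 12310 in Nipponbare. The sum therefore mainly follows that locus.

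The Hsp70 locus Os11t0703900-01 measured 6907, 7149 and 7005 in GW6a-4.6, 7280.3, 7344 and 6875 in OsglHAT1-OE, and 12697 and 11923 in Nipponbare. It fell 1.75-fold in GW6a-4.6 and 1.72-fold in OsglHAT1-OE without overlap (adjusted p = 3.39e-14 and 6.79e-14), but the GW6a-4.6 call was lost with quantile normalization (log2 -0.13, adjusted p = 0.0652). Os05t0460000-01, similar to a cognate Hsp70, the form made without stress, measured 151, 152 and 164 in GW6a-4.6, 148, 146 and 139.6 in OsglHAT1-OE, and 693 and 637 in Nipponbare. Os01t0840100-01 measured 159.9, 146 and 136 in GW6a-4.6, 125, 109.5 and 119.7 in OsglHAT1-OE, and 714 and 649 in Nipponbare. In both, every line library lay far under Nipponbare, with falls of 4.27-fold and 4.62-fold in GW6a-4.6 and of 4.61-fold and 5.78-fold in OsglHAT1-OE (adjusted p of 2.82e-21 or less). Os03t0276500-01 differed between the lines as well, at 422, 407 and 415 in GW6a-4.6 and 285, 275 and 257 in OsglHAT1-OE, against 1649.9 and 1549 in Nipponbare; OsglHAT1-OE was lower than GW6a-4.6 (log2 -0.60, adjusted p = 4.81e-09).

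Hsp70s annotated to organelles fell too. The chloroplast locus Os05t0303000-01 measured 238, 242 and 241 in GW6a-4.6, 305, 315 and 284 in OsglHAT1-OE, and 390.4 and 384 in Nipponbare, a fall of log2 -0.69 in GW6a-4.6 and -0.36 in OsglHAT1-OE. Mitochondrial locus Os03t0113700-01 measured 105, 108 and 116 in GW6a-4.6, 120.3, 122 and 123 in OsglHAT1-OE, and 253 and 251 in Nipponbare, a fall of log2 -1.20 and -1.05. The groups did not overlap in either, and all 4 differences passed (adjusted p of 0.000318 or less). Os03t0821100-01, similar to an Hsc70 that passes from cell to cell, measured 439, 485 and 459 in GW6a-4.6, 671, 667 and 652 in OsglHAT1-OE, and 1024 and 980.1 in Nipponbare. OsglHAT1-OE stood between the other groups, above GW6a-4.6 by log2 0.52 (adjusted p = 4.41e-08). Os03t0218500-01 had log2 differences of -1.59 in GW6a-4.6 and -1.21 in OsglHAT1-OE, and Os03t0277300-01 of -1.50 and -1.66. The 1 Hsp70 that rose in GW6a-4.6, Os11t0696600-01 (log2 0.36, adjusted p = 0.0122), and the 1 that rose in OsglHAT1-OE, Os06t0212900-01 (log2 0.58, adjusted p = 0.0285), both lost their call when either Nipponbare library was left out.

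All 7 tested Hsp90 loci were called in GW6a-4.6, 6 lower and 1 higher (median log2 -0.41), and 5 fell in OsglHAT1-OE (median -0.22). The shares lower were 85.7% and 71.4%, beside 19.5% and 29.7% over all loci. Their summed value was 17165 ± 207 in GW6a-4.6 and 19128 ± 160 in OsglHAT1-OE (SD, n = 3 each), against 23128 ± 826 in Nipponbare (SD, n = 2). The Hsp82-like locus Os08t0500700-01 measured 589, 577 and 569 in GW6a-4.6, 595, 559 and 538 in OsglHAT1-OE, and 1612 and 1516 in Nipponbare. It had the largest fall of the class, 2.703-fold in GW6a-4.6 and 2.77-fold in OsglHAT1-OE, while the lines overlapped each other (log2 -0.04 between them, adjusted p = 0.702). The 3 loci Os09t0482100-01, Os09t0482400-01 and Os09t0482600-01, annotated as Hsp82 and Hsp81-3, had nearly equal values in every library and may share reads. Each was called lower in both lines and enters the class counts, shares and sum, which may therefore count the same reads more than once. The second of the 3 loci, standing here for the trio, measured 5084, 5201 and 5179 in GW6a-4.6, 5778, 5868 and 5914 in OsglHAT1-OE, and 7008 and 6653 in Nipponbare. It fell in GW6a-4.6 (log2 -0.41, adjusted p = 4.84e-07) and, by less, in OsglHAT1-OE (log2 -0.22, adjusted p = 0.00189), a call lost with median-ratio scaling (adjusted p = 0.0718) and without Nipponbare replicate 1 (adjusted p = 0.0683). Under those settings 3 Hsp90 loci fell in OsglHAT1-OE.

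Other Hsp90 loci kept to small differences. Os09t0534600-01 fell, at log2 -0.43 in GW6a-4.6 and -0.29 in OsglHAT1-OE, and Os04t0107900-03 had -0.47 in GW6a-4.6 with -0.17 in OsglHAT1-OE, which did not pass (adjusted p = 0.208). Os06t0716700-02 was the 1 Hsp90 locus that rose, at 853, 921 and 874 in GW6a-4.6, 786, 815 and 758 in OsglHAT1-OE, and 728 and 715 in Nipponbare. The groups did not overlap, and it passed in GW6a-4.6 (log2 0.29, adjusted p = 0.000971) but in OsglHAT1-OE only with other scalings (log2 0.12, adjusted p = 0.151, or 0.00877 with median-ratio scaling).

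Among the Hsp90 partners, an activator of the Hsp90 ATPase (Aha1 type), Os02t0139100-01, measured 35.2, 35.9 and 31.3 in GW6a-4.6, 22.2, 20.5 and 16.7 in OsglHAT1-OE, and 102 and 93.7 in Nipponbare. The 3 groups did not overlap, and it fell 2.87-fold in GW6a-4.6 and 4.96-fold in OsglHAT1-OE (adjusted p = 8.81e-11 and 9.16e-16). Loci similar to STI, the scaffold that links Hsp70 to Hsp90, had smaller differences. Os02t0644100-01 had log2 differences of -0.28 in GW6a-4.6 (adjusted p = 0.00649) and -0.22 in OsglHAT1-OE (adjusted p = 0.0248), calls lost without Nipponbare replicate 2 (adjusted p = 0.117 and 0.220). Os06t0163000-01 measured 98.9, 107 and 119.9 in GW6a-4.6, 70.7, 71.1 and 65.6 in OsglHAT1-OE, and 125 and 119 in Nipponbare. It fell in OsglHAT1-OE (log2 -0.81, adjusted p = 5.89e-08) and overlapped Nipponbare in GW6a-4.6 (adjusted p = 0.198, or 0.0232 with median-ratio scaling). Over the 17 loci outside the named classes, 8 fell and 2 rose in GW6a-4.6, and 9 fell and 1 rose in OsglHAT1-OE (47.1% and 52.9% lower, beside 19.5% and 29.7% over all loci), with Os02t0537400-01 at the largest fall in GW6a-4.6 (log2 -1.65) and Os05t0529700-01 at the largest in OsglHAT1-OE (log2 -2.31). Without Nipponbare replicate 2 the count that fell in GW6a-4.6 was 5, without GW6a-4.6 replicate 1 or 3 the count that rose there was 1, and without Nipponbare replicate 1 the count that rose in OsglHAT1-OE was 2.

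Both Hsp100 loci, a class of only 2, fell in both lines, beside 19.5% lower in GW6a-4.6 and 29.7% in OsglHAT1-OE over all loci. Hsp101, the cytosolic disaggregase needed for acquired heat tolerance in plants, is Os05t0519700-01. It measured 6.96, 4.01 and 6.701 in GW6a-4.6, 5.43, 2.48 and 2.21 in OsglHAT1-OE, and 52.5 and 53.96 in Nipponbare. Every line library was far below both Nipponbare libraries, a fall of 9.03-fold in GW6a-4.6 (log2 -3.01 ± 0.27 SE, adjusted p = 7.4e-12) and 15.8-fold in OsglHAT1-OE (log2 -3.71 ± 0.27 SE, adjusted p = 1.83e-14). Os03t0426900-01, similar to Hsp101, measured 71.05, 83.3 and 82.4 in GW6a-4.6, 92.9, 91.8 and 87.9 in OsglHAT1-OE, and 145 and 152 in Nipponbare. Its fall was smaller, 1.88-fold in GW6a-4.6 and 1.64-fold in OsglHAT1-OE (adjusted p = 4.76e-09 and 6.69e-07). Os02t0181900-01, annotated as similar to ClpB, the bacterial form of the disaggregase, is not held by the annotation rule. It measured 25.7, 36.7 and 36.6 in GW6a-4.6, 37.3, 38.1 and 33.9 in OsglHAT1-OE, and 102 and 118 in Nipponbare, a fall of 3.34-fold and 3.03-fold without overlap.

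**Figure D4:**
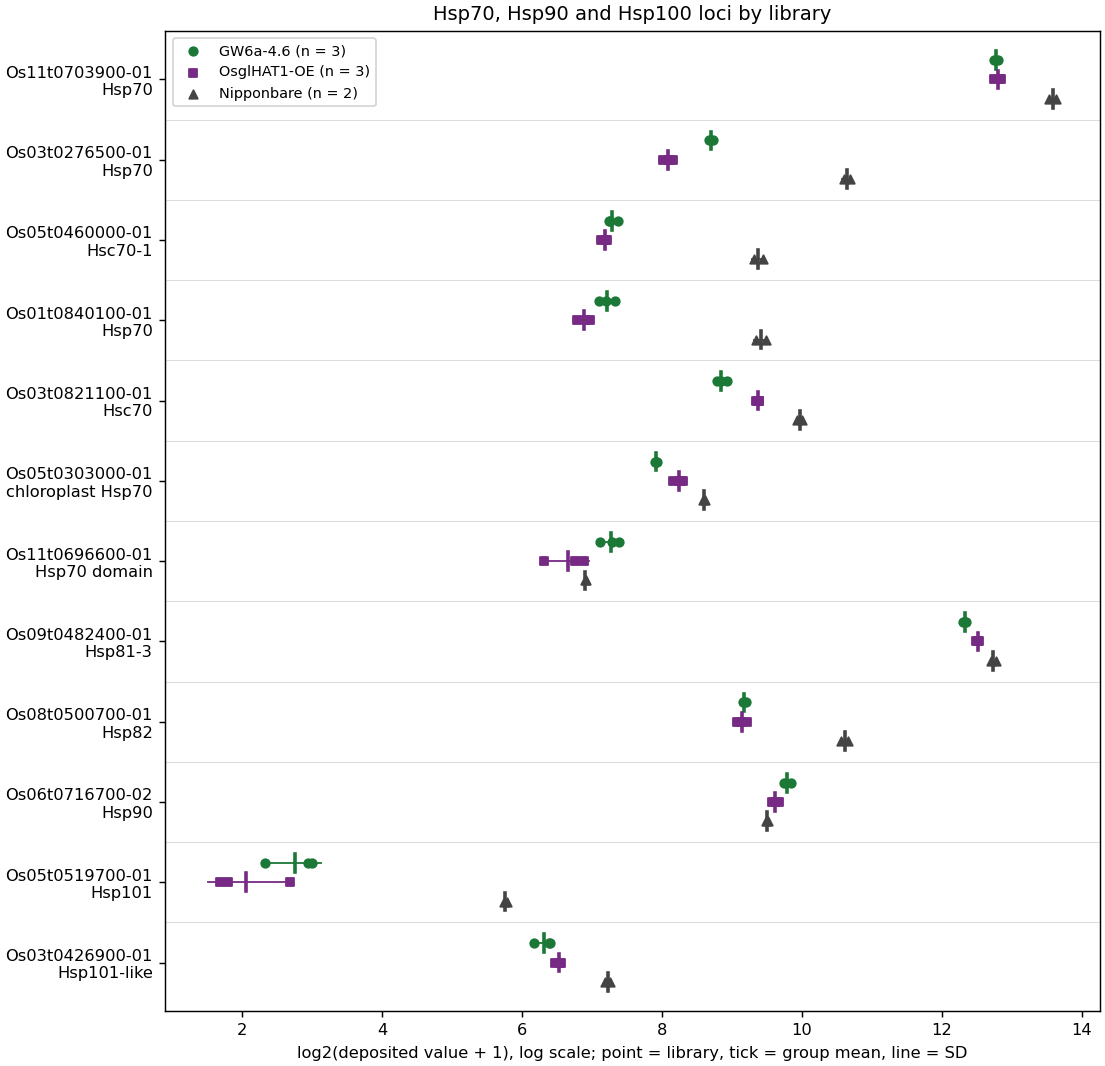
Values of 7 Hsp70, 3 Hsp90 and 2 Hsp100 loci on the log2(deposited value + 1) scale (horizontal axis), one locus per line with GW6a-4.6 above OsglHAT1-OE above Nipponbare. Points are libraries, ticks are group means and lines are SDs; Os11t0696600-01 and Os06t0716700-02 lie above Nipponbare in GW6a-4.6, and the other 10 loci lie below Nipponbare in both lines.

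The DnaJ class, whose J-domain proteins deliver clients to Hsp70, was the largest. Of 105 tested loci, 33 fell and 15 rose in GW6a-4.6 (31.4% and 14.3%, beside 19.5% and 26.7% over all loci, median log2 -0.13), and 42 fell and 12 rose in OsglHAT1-OE (40.0% and 11.4%, beside 29.7% and 22.8% over all loci, median -0.19). Without Nipponbare replicate 2 the GW6a-4.6 counts were 18 lower and 8 higher, and without Nipponbare replicate 1 they were 23 lower and 9 higher. The count that rose in OsglHAT1-OE was 5 without Nipponbare replicate 1 and 18 in edgeR's test.

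Os03t0787300-01, similar to a DnaJ homolog, measured 347, 316 and 334 in GW6a-4.6, 268, 291 and 245 in OsglHAT1-OE, and 889 and 829 in Nipponbare. It fell 2.58-fold in GW6a-4.6 and 3.205-fold in OsglHAT1-OE, and the 3 groups did not overlap (adjusted p = 1.45e-16 and 2.45e-19). Os05t0562300-01 measured 27.8, 21.2 and 21.9 in GW6a-4.6, 21.3, 21.5 and 17.8 in OsglHAT1-OE, and 102 and 82.6 in Nipponbare, falls of 3.89-fold and 4.55-fold. Os06t0195800-01 measured 0.714, 1.53 and 1.09 in GW6a-4.6, 0, 0.261 and 0 in OsglHAT1-OE, and 15.7 and 8.06 in Nipponbare. It had the largest model difference of the class in both lines (log2 -2.56 and -3.51, adjusted p = 5.01e-08 and 2.57e-11). Os01t0157800-01 fell as well, at log2 -1.93 in GW6a-4.6 and -2.19 in OsglHAT1-OE.

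A pair of DnaJ loci fell further in GW6a-4.6 than in OsglHAT1-OE. Os01t0606900-01 measured 4.998, 4.21 and 5.43 in GW6a-4.6, 14.97, 13.6 and 9.14 in OsglHAT1-OE, and 23.99 and 19.6 in Nipponbare. Os04t0675400-01 measured 7.14, 5.35 and 6.16 in GW6a-4.6, 12.04, 13.6 and 12.4 in OsglHAT1-OE, and 21.6 and 20.4 in Nipponbare. GW6a-4.6 was lowest in both without overlap, and OsglHAT1-OE exceeded GW6a-4.6 by log2 1.18 and 0.93 (adjusted p = 2.5e-05 and 0.000252). Their calls in OsglHAT1-OE against Nipponbare (log2 -0.77 and -0.69) were lost without Nipponbare replicate 1 (adjusted p = 0.108 and 0.0661). Os07t0626400-01 had the opposite order of the lines, at 28.6, 27.9 and 27.9 in GW6a-4.6, 14.7, 16.7 and 13.9 in OsglHAT1-OE, and 40.96 and 38.02 in Nipponbare, with OsglHAT1-OE below GW6a-4.6 (log2 -0.86, adjusted p = 1.38e-05).

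The largest rise of the whole family was that of the DnaJ locus Os06t0716100-01. It measured 75.7, 66.9 and 69.9 in GW6a-4.6, 102, 110.3 and 79.2 in OsglHAT1-OE, and 14.3 and 16.1 in Nipponbare. The 3 groups did not overlap, and it rose 4.65-fold in GW6a-4.6 (log2 2.15 ± 0.14 SE, adjusted p = 3.77e-16) and 6.38-fold in OsglHAT1-OE (log2 2.59 ± 0.14 SE, adjusted p = 1.2e-18). Os08t0520850-00 measured 18.9, 16.8 and 15.6 in GW6a-4.6, 15.9, 13.04 and 9.58 in OsglHAT1-OE, and 3.51 and 6.53 in Nipponbare, rises of 3.41-fold and 2.55-fold. Os08t0452900-01 rose in GW6a-4.6 (2.76-fold, adjusted p = 7.49e-07) and did not pass in OsglHAT1-OE (log2 0.46, adjusted p = 0.0545, or 0.0141 with median-ratio scaling), and OsglHAT1-OE was lower than GW6a-4.6 (log2 -0.89, adjusted p = 0.000186). Os05t0427900-01 rose in OsglHAT1-OE (3.77-fold, adjusted p = 1.4e-06), while its call in GW6a-4.6 (adjusted p = 0.0446) was lost, among other settings, with median-ratio scaling (adjusted p = 0.0568). Os02t0656500-01 and Os03t0648400-02 had close values in every library and may share reads. Both fell, at log2 -0.39 and -0.24 in GW6a-4.6 and -0.51 and -0.41 in OsglHAT1-OE. Closer still were the DnaJ loci Os05t0333500-01, Os05t0334000-01 and Os05t0334400-03, with means of 141.02, 140.98 and 140.75 over all libraries. The DnaJ counts and shares may therefore count the same reads more than once.

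Chaperonins stayed near the whole table in GW6a-4.6. Of 27 tested, 9 rose and 6 fell in GW6a-4.6 (33.3% and 22.2%, beside 26.7% and 19.5% over all loci, median log2 0.08), and 10 rose and 5 fell in OsglHAT1-OE (37.0% and 18.5%, beside 22.8% and 29.7% over all loci, median 0.17). Without Nipponbare replicate 2 the GW6a-4.6 counts were 5 higher and 4 lower, and without Nipponbare replicate 1 they were 6 and 4. The summed value was 3135 ± 49 in GW6a-4.6 and 3369 ± 198 in OsglHAT1-OE (SD, n = 3 each), against 3114 ± 28 in Nipponbare (SD, n = 2).

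The chloroplast cochaperonin Os02t0781400-02, which caps the chloroplast chaperonin, measured 42.5, 45.7 and 44.7 in GW6a-4.6, 60.5, 61.3 and 51.3 in OsglHAT1-OE, and 22.5 and 28.8 in Nipponbare. All line libraries exceeded Nipponbare, and it rose 1.73-fold in GW6a-4.6 and 2.25-fold in OsglHAT1-OE (adjusted p = 1.82e-05 and 9.56e-09). Os06t0197550-00 measured 42.3, 43.97 and 46.7 in GW6a-4.6, 39.9, 47.2 and 42.7 in OsglHAT1-OE, and 29.5 and 23.6 in Nipponbare, rises of 1.67-fold and 1.63-fold. Of 3 mitochondrial chaperonin-60 loci, 2 gave smaller rises, 1.45-fold and 1.35-fold for Os03t0143400-01, and 1.28-fold and 1.29-fold for Os05t0540300-01, whose 2 calls were lost without Nipponbare replicate 1 (adjusted p = 0.112 and 0.0911). The other one, Os10t0462900-01, did not pass in GW6a-4.6 (log2 0.07, adjusted p = 0.494) or in OsglHAT1-OE (log2 0.17, adjusted p = 0.058, or 0.00216 with median-ratio scaling). The chaperonin alpha subunit that binds Rubisco before its assembly, Os12t0277500-01, measured 209, 197 and 214 in GW6a-4.6, 298, 305 and 287 in OsglHAT1-OE, and 215 and 230.0 in Nipponbare. OsglHAT1-OE lay above both other groups (log2 0.41 against Nipponbare, adjusted p = 0.000105, and 0.52 against GW6a-4.6, adjusted p = 1.13e-06), and GW6a-4.6 did not pass against Nipponbare (adjusted p = 0.316, or 0.0334 with median-ratio scaling). The beta subunit Os02t0102900-01 and another alpha subunit, Os03t0859600-01, did not pass in OsglHAT1-OE against Nipponbare (log2 0.03 and -0.15, adjusted p = 0.785 and 0.191). Leaf markers, 16 loci for chlorophyll a/b-binding proteins and the small subunit of Rubisco, summed to 2482 to 3155 in GW6a-4.6, 3125 to 3804 in OsglHAT1-OE and 2764 to 3134 in Nipponbare, with 2 loci at 0 in every library. Of the 14 tested, 2 rose and 2 fell in GW6a-4.6, beside 26.7% higher and 19.5% lower over all loci. In OsglHAT1-OE 4 rose and 1 fell, beside 22.8% and 29.7%. Between the lines, 5 were higher in OsglHAT1-OE than in GW6a-4.6, beside 7.68% over all loci, a share that depended on the scaling of the libraries. The part of the leaf markers in the chloroplast chaperonin values was not tested.

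The chaperonins that fell in both lines were a pair of Cpn60/TCP-1 family loci and the RbcX proteins, which help Rubisco subunits assemble. In GW6a-4.6 the Cpn60 locus Os06t0114000-02 was lower as well (log2 -0.22, adjusted p = 0.0142), a call lost without Nipponbare replicate 1 (adjusted p = 0.135) or 2 (adjusted p = 0.0549), while it did not pass in OsglHAT1-OE (log2 0.02, adjusted p = 0.805) and was higher there than in GW6a-4.6 (log2 0.25, adjusted p = 0.00407). Os08t0450700-01 measured 35.7, 59.3 and 55.4 in GW6a-4.6, 66.9, 74.1 and 61.5 in OsglHAT1-OE, and 161 and 180.1 in Nipponbare. Os04t0691900-01 measured 0.357, 0.382 and 0.724 in GW6a-4.6, 1.17, 1.04 and 1.03 in OsglHAT1-OE, and 10.8 and 13.4 in Nipponbare. Each line lay wholly below Nipponbare, at log2 -1.78 and -3.14 in GW6a-4.6 and -1.33 and -2.65 in OsglHAT1-OE (adjusted p of 3.38e-09 or less). Of the 3 RbcX loci, Os03t0807900-01 measured 18.4, 11.7 and 16.5 in GW6a-4.6, 4.11, 2.999 and 6.04 in OsglHAT1-OE, and 41.2 and 33.6 in Nipponbare. It fell 2.41-fold in GW6a-4.6 and 8.54-fold in OsglHAT1-OE without overlap between the 3 groups. Os07t0569600-01 fell 1.99-fold and 2.16-fold, while the falls of Os08t0425200-01 (log2 -0.83 and -0.68) were lost, among other settings, without Nipponbare replicate 2 in GW6a-4.6 (adjusted p = 0.195) and with median-ratio scaling in OsglHAT1-OE (adjusted p = 0.0590).

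The cytosolic chaperonin, which folds actin and tubulin, is annotated as T-complex protein 1 at 7 loci outside the annotation rule, a list drawn up after the annotations had been read. Of the 7, 5 rose in GW6a-4.6 and 7 in OsglHAT1-OE, beside 26.7% and 22.8% higher over all loci. Their median log2 difference was 0.24 and 0.43, beside 0.07 and -0.08 over all loci. Os06t0562600-01, the epsilon subunit, measured 838, 880.4 and 879.8 in GW6a-4.6, 1068, 1069 and 1015 in OsglHAT1-OE, and 767 and 764 in Nipponbare. The groups did not overlap, and it rose 1.37-fold in OsglHAT1-OE (adjusted p = 7.69e-07), while its 1.13-fold rise in GW6a-4.6 (adjusted p = 0.0346) was lost, among other settings, with median-ratio scaling (adjusted p = 0.178). A gamma subunit, Os02t0247200-01, rose 1.39-fold and 1.56-fold (adjusted p = 0.000807 and 1.25e-05).

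**Figure D5:**
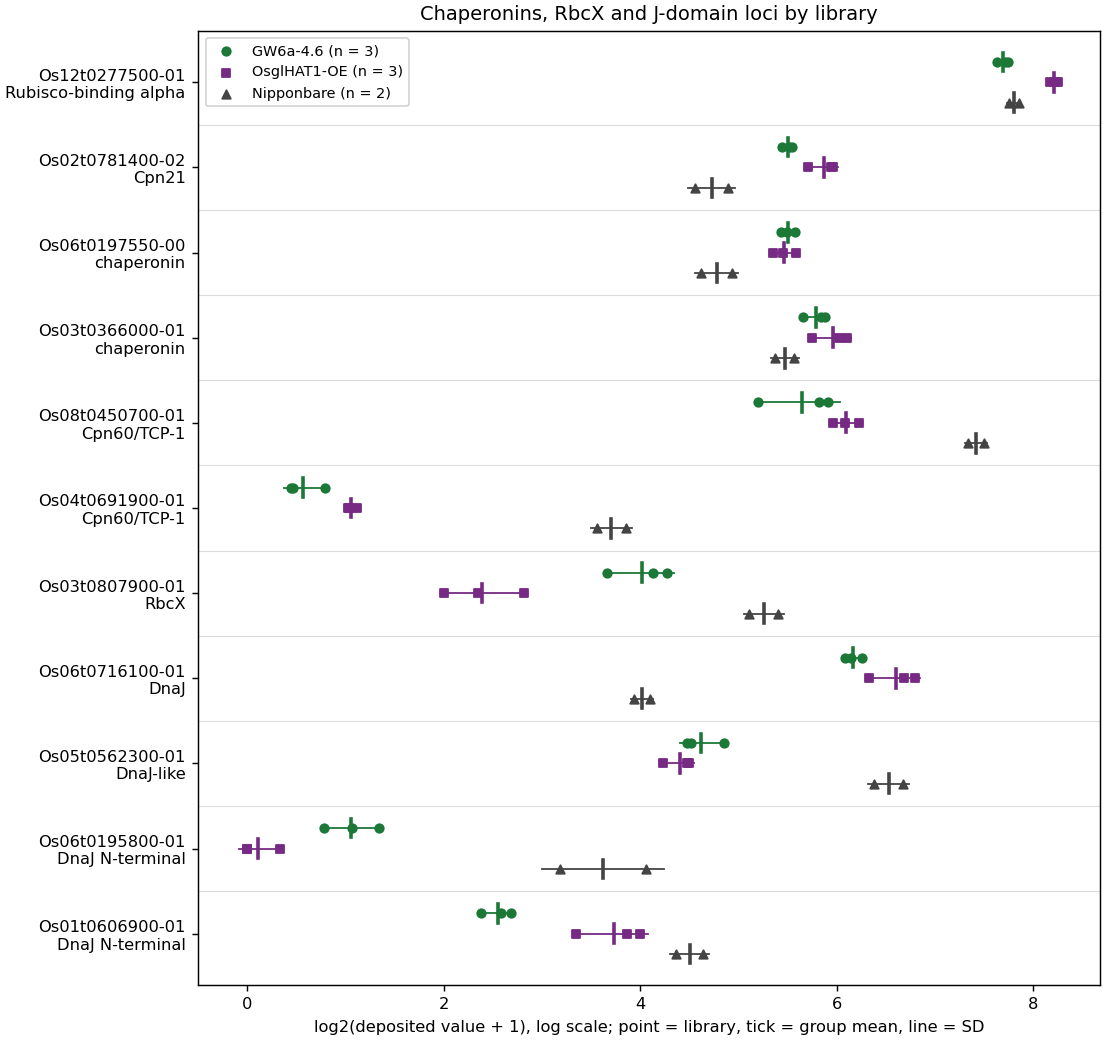
Values of 6 chaperonin, 1 RbcX and 4 DnaJ loci on the log2(deposited value + 1) scale (horizontal axis), one locus per line with GW6a-4.6 above OsglHAT1-OE above Nipponbare. Points are libraries, ticks are group means and lines are SDs; Os02t0781400-02, Os06t0197550-00, Os03t0366000-01 and Os06t0716100-01 lie above Nipponbare in both lines, and the 6 loci Os08t0450700-01, Os04t0691900-01, Os03t0807900-01, Os05t0562300-01, Os06t0195800-01 and Os01t0606900-01 lie below it.

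Set against each other, the lines differed at 75 of the 238 loci, with 28 higher and 47 lower in OsglHAT1-OE than in GW6a-4.6, which is 11.8% and 19.7% against 7.68% higher, 24.7% lower and 32.4% either way over all loci. This split depended on the scaling of the libraries. With median-ratio scaling 68 loci were higher and 33 lower in OsglHAT1-OE, and over all loci 18.7% were higher and 18.6% lower. That scaling moved the median of all loci from -0.13 to 0.01 on the log2 scale. Without OsglHAT1-OE replicate 3 the unscaled counts were 32 higher and 41 lower. The differences between the lines given above for single loci kept their direction under median-ratio scaling, and those of the Hsp90 trio (log2 0.18 for Os09t0482400-01) turned under quantile normalization.

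Other parts of the chaperone system were read from a list of annotation terms, which held 124 loci outside the family, 119 of them tested. In GW6a-4.6, 30 rose and 22 fell, and in OsglHAT1-OE, 30 rose and 32 fell. The shares, 25.2% higher and 18.5% lower in GW6a-4.6 and 25.2% and 26.9% in OsglHAT1-OE, were near the 26.7% and 19.5%, and the 22.8% and 29.7%, over all loci. The rises in OsglHAT1-OE were 18 without Nipponbare replicate 2. Peptidyl-prolyl isomerases, which turn proline bonds, gave 11 that rose and 5 that fell of 41 in GW6a-4.6, and 11 and 11 in OsglHAT1-OE; their share higher, 26.8% in each line, was near that over all loci. Prefoldins, which pass unfolded actin and tubulin to the cytosolic chaperonin, gave 6 that rose and 1 that fell of 18 in GW6a-4.6, and 4 and 1 in OsglHAT1-OE (33.3% and 22.2% higher). Calnexins and calreticulins gave 4 that rose and 1 that fell of 6 in GW6a-4.6, and 3 and 3 in OsglHAT1-OE (66.7% and 50% higher). Calreticulin Os07t0246200-01, a calcium-binding chaperone of the endoplasmic reticulum, measured 806, 774 and 769 in GW6a-4.6, 876, 909 and 853 in OsglHAT1-OE, and 369 and 337 in Nipponbare. All line libraries exceeded Nipponbare, with rises of 2.22-fold and 2.49-fold (adjusted p = 5.89e-16 and 8.65e-18). Galactinol synthase Os03t0316200-01, an enzyme of raffinose sugar synthesis that heat shock factors switch on in Arabidopsis, measured 41.4, 39.2 and 34.6 in GW6a-4.6, 37.9, 36.6 and 30.4 in OsglHAT1-OE, and 373 and 356 in Nipponbare. It fell 9.49-fold in GW6a-4.6 and 10.4-fold in OsglHAT1-OE without overlap with Nipponbare (adjusted p = 1.24e-22 and 3.1e-23). The FKBP-type isomerase Os01t0564300-01 rose 4.53-fold in GW6a-4.6 and 1.32-fold in OsglHAT1-OE, the second call being lost without Nipponbare replicate 2 (adjusted p = 0.0704), and the Clp ATPase subunit Os02t0526400-01 fell 1.69-fold and 4.47-fold. Its group did not fall as a whole. Of the 22 tested Clp loci, 4 rose and 3 fell in GW6a-4.6 (18.2% and 13.6%). In OsglHAT1-OE, 7 of them rose and 4 fell (31.8% and 18.2%). The list term for stress-inducible proteins also took up the dehydrin RAB21 locus Os11t0454300-01, which fell, at log2 -3.61 in GW6a-4.6 and -5.03 in OsglHAT1-OE.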

How the data were processed

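RNA of the shoot apical meristem was sequenced as single-end libraries, per the labels' protocols, and Bowtie, edgeR and the build IRGSP-1.0 are named in the submitters' processing notes, without roles. The deposited signal per transcript model, as the authors made it, was proportional to read alignments over a library total, and 100% of values came out as whole reads within 0.01. Alignments outnumbered library reads, so a read may count for more than 1 model or place, and near-identical copies may share signal. Strand use in counting is not given in the sources used here.

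For each locus the model with the highest mean was kept, and for the chaperone family the highest matching one. Values were taken as log2(value + 1), which understates changes of low loci. A model with a mean per group over all 8 libraries was fitted with limma 3.58.1 (R 4.3.3, trended prior) to the 31487 loci whose value reached 1 in 2 libraries or more. Adjusted p-values are Benjamini-Hochberg over those loci, with a threshold of 0.05. Folds are ratios of group means of deposited values, and log2 differences and their SE are from the model. Intervals and floors cover counting error only. On simulated data for GW6a-4.6 minus Nipponbare, with all 31487 loci, the fit recovered 45.1% of 1.5-fold, 66.1% of 2-fold and 91.5% of 4-fold changes. Only 82, 59 and 59 loci were changed there, while 46.3% of loci were called in the real comparison. The adjusted threshold was therefore stricter on simulated data, and these shares do not carry over. Alternatives included edgeR 4.0.16 and DESeq2 1.42.0 on the recovered whole reads. Over all loci edgeR called 15662 in GW6a-4.6 minus Nipponbare, 17646 in OsglHAT1-OE minus Nipponbare and 11915 in OsglHAT1-OE minus GW6a-4.6, against 14566, 16536 and 10206 by limma.

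Loci were named by a rule: in each class the 3 with the highest mean, per comparison up to 3 called in each direction with the largest change, a group mean of 5 or more and no overlap, called HSFs, loci called in opposite directions in the lines, and the 4 other chaperone system loci with the smallest adjusted p in each line. The text describes those that carry a comparison. Outside the rule, and chosen after their values were seen, were Os01t0184100-01, Os03t0266300-01, Os03t0266900-02, Os03t0267000-00, Os03t0267200-01, Os01t0135800-01, Os01t0136000-00, Os01t0136050-00, Os04t0445100-01, Os06t0253100-01, Os03t0787300-01, Os05t0333500-01, Os05t0334000-01, Os05t0334400-03, Os03t0277300-01, Os03t0113700-01, Os07t0569600-01, Os08t0425200-01, Os03t0143400-01, Os05t0540300-01, Os02t0102900-01, Os03t0859600-01, the heat stress factors, ClpB and T-complex loci outside the annotation rule. The members and lists were chosen with earlier results of these data known. Promoter and protein sequences were not used here, so a planned motif count was not run.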

Additional observations from a re-analysis of the deposited data

How the results depend on the processing

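The family's counts against Nipponbare stayed within 1.5 times of those reported under every alternative, except that the count higher in GW6a-4.6 was 24 without Nipponbare replicate 1 and 23 without Nipponbare replicate 2, a range of 23 to 41 over the libraries left out. The contrast between the lines depended on scaling. There, the family's count higher in OsglHAT1-OE was 68 with median-ratio scaling, 60 with quantile normalization, 68 in edgeR and 63 in DESeq2, against 28 reported, and the count lower was 30 in DESeq2, against 47. Over all loci the count higher was 5893 with median-ratio scaling, 6168 with quantile normalization, 6060 in edgeR and 5047 in DESeq2, and 1589 to 3257 with a library left out, against 2419. The count lower was 5188 with quantile normalization and 5107 in DESeq2, against 7787. Of the other chaperone system loci, the count higher in OsglHAT1-OE than in GW6a-4.6 was 29 with median-ratio scaling, 24 with quantile normalization, 30 in edgeR, 25 in DESeq2, 6 with only the 2 groups in the model and 4 to 14 with a library left out, against 10. The count lower was 15 with median-ratio scaling and 14 in DESeq2, against 23, and the count higher in OsglHAT1-OE than in Nipponbare was 18 to 36 with a library left out, against 30. The cause of these moves was not tested. With quantile normalization the difference between OsglHAT1-OE and GW6a-4.6 reversed to a log2 of -0.425 for Os11t0703900-01, -0.0194 for Os09t0482400-01, -0.0590 for Os09t0482600-01 and -0.151 for Os09t0482100-01.

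Of 6486 values recomputed for named loci, 6102 kept their direction and side of the threshold, 226 lost the call, 154 gained one and 4 reversed. Same-numbered libraries did not deviate together, with correlations of -0.003 to 0.065, so the numbers were not taken to pair them. With the replicate block the family's counts were 40 higher and 99 lower in GW6a-4.6, and 37 higher and 107 lower in OsglHAT1-OE. With 2 Nipponbare libraries the spread of that group rests on little. On simulated data with few changed loci, 1.5-fold changes were often missed, but those shares do not carry over to the real comparisons.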
